A study of Mus musculus with 12 samples.

Results

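Glutathione is the main small-molecule antioxidant of animal cells, and 10 genes of its synthesis and of the NRF2 response were followed in intestine and liver of mice given CORT. The genes were chosen by name (Gclc, Gclm, Gss, Gsr, Nqo1, Hmox1, Srxn1, Txnrd1, Nfe2l2 and Keap1) among the 55416 genes listed in both tables of TPM, which are transcript abundances corrected for transcript length and scaled within each library. They were chosen with earlier results of these data known, so their shares beside those of all genes are a description only. In both groups of both tissues all 10 averaged 1 TPM or more, so all 10 passed the filter on low values through either group and were tested. The mice were male C57BL6/J animals, 8 weeks old at the start, which received CORT (corticosterone, the main glucocorticoid of rodents) at 40 mg/kg or vehicle (Veh) under the skin daily for 8 weeks. No genetic change was made, and both groups received injections for the whole period. RNA came from duodenum, labelled intestine, and from liver, with 3 CORT and 3 Veh libraries in each tissue and 12 in all. The labels do not say whether an intestine and a liver library came from the same mouse.

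Glutathione is made in a pair of ATP-driven steps. Glutamate-cysteine ligase, formed by the catalytic subunit GCLC and the modifier subunit GCLM, joins glutamate to cysteine and is rate-limiting. Glutathione synthetase, encoded by Gss, adds glycine, and glutathione reductase, encoded by Gsr, returns the oxidised form to the reduced one with NADPH. The transcription factor NRF2, encoded by Nfe2l2, is held low by KEAP1, a sensor that directs it to degradation. On oxidative or electrophilic stress NRF2 escapes, enters the nucleus, and with small MAF proteins binds antioxidant response elements of genes such as Nqo1, Hmox1, Srxn1 and Txnrd1. Gut epithelium and hepatocytes both use the system against food-borne and drug-derived electrophiles.

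The promoters of the genes on which the results below turn are shown because NRF2 acts through a short DNA motif. Sequences were taken from RefSeq (GRCm38.p6), whose table held promoters of 7 of the 10 genes, and Gclc, Gsr and Hmox1 were not among them. The 250 bases before the transcription start are printed 5′ to 3′ on the strand of the gene, and capitals mark the core of the antioxidant response element, searched as TGACNNNGC on both strands. Gclm lies on the plus strand at chr3:122245307-122245556, Nqo1 on the minus strand at chr8:107403206-107403455 and Gss on the minus strand at chr2:155592811-155593060.
Gclm: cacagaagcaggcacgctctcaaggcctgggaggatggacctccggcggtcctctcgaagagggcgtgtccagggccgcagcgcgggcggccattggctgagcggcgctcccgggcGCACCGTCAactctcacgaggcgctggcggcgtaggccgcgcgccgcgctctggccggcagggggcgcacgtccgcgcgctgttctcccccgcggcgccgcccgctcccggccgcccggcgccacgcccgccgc
Nqo1: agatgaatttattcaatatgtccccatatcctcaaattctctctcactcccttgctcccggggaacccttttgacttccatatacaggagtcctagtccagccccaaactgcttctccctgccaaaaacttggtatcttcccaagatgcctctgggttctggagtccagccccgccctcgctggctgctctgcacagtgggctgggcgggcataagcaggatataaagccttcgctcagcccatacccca
Gss: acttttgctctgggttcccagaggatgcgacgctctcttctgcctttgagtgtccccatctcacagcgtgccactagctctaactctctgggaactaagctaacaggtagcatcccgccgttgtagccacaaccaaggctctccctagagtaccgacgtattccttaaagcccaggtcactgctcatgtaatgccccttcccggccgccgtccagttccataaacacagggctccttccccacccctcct

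Within 250 bases before and 50 after the start, the core was present for 4 of the 7 genes and in 4 of 9 windows (44.4%), Txnrd1 having 3 starts in the table, compared with 12.4% of all 32851 promoter windows. In Gclm it read TGACGGTGC on the strand opposite to the gene, 134 bases before the start. The windows of 29 bases around the core in the other 3 genes are printed below in the same way. The cores lie 240 bases before the start of Nfe2l2, 92 before the second-listed start of Txnrd1 and 29 after the start of Srxn1. The end of the Nfe2l2 window, after the listed start, was found in no transcript of the GENCODE annotation. The distance of its core is therefore uncertain, and start positions were not compared directly. The windows of Nqo1, Gss and Keap1 did not hold these letters, which says nothing of other spellings or of elements farther away.
Nfe2l2: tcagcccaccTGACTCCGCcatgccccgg
Txnrd1: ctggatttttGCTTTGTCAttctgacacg
Srxn1: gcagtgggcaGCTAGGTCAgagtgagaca

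The libraries matched their tissues. Alb, the hepatocyte albumin gene, ranged from 32823 to 59476 TPM in liver and from 0.13 to 0.39 in intestine, and Vil1, a brush border gene, from 839 to 1436 TPM in intestine and from 0.02 to 0.34 in liver. Fkbp5, a standard glucocorticoid target, followed the labels of treatment in both tissues, with 8.68 to 23.33 TPM in Veh and 251.83 to 379.08 in CORT in intestine, and with 7.14 to 19.51 and 220.88 to 273.03 in liver. In intestine, the summed TPM of 31 pancreatic acinar genes reached 46614 and 37766 in Veh2 and Veh3, whereas Veh1 had 291 and the CORT libraries 331 to 559, so a pair of Veh libraries stood apart. All 30 acinar genes tested had a negative fold change. Values without these genes or libraries are given for some results below. Removing the acinar genes only rescales the libraries and leaves any other transcripts of acinar cells in place. The part of acinar tissue in the results was therefore not tested. In bulk tissue, fewer cells of a type and less RNA per cell cannot be told apart.

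In Veh intestine, Txnrd1, which encodes cytosolic thioredoxin reductase, had the highest mean of the 10 genes at 164 TPM, and its lowest library (152.91) lay above every library of Nfe2l2, Srxn1, Gss and Gclm. The means of those 4 were 121, 118, 99.7 and 92.2 TPM, and neighbours in this order overlapped between libraries. Gsr (70.9) and Nqo1 (54.9) followed and overlapped, as did Keap1 (27.1) and Gclc (22.5), and Hmox1 was lowest at 2.89 TPM. Transcripts of the catalytic subunit were thus much less abundant than those of the modifier subunit, with a Gclc to Gclm ratio of 0.146 to 0.355.

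Veh liver had another order. Gclm (75.8 TPM), Gclc (63.4) and Gss (62.9) led and overlapped, and Txnrd1 followed at 45.9. Gsr (27.6), Nfe2l2 (23.3) and Keap1 (20.7) came next, each overlapping its neighbour, and then Srxn1 (13.2) and Hmox1 (11.7), which also overlapped. Nqo1, which encodes a quinone reductase, was lowest at 3.21 TPM. The mean of Nqo1 was 17.1 times higher in Veh intestine than in Veh liver, that of Srxn1 8.95 times and that of Nfe2l2 5.20 times, while Hmox1 was 4.05 times and Gclc 2.81 times higher in liver. The tables were scaled separately, so these levels are set side by side without a test.

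**Figure D1:**
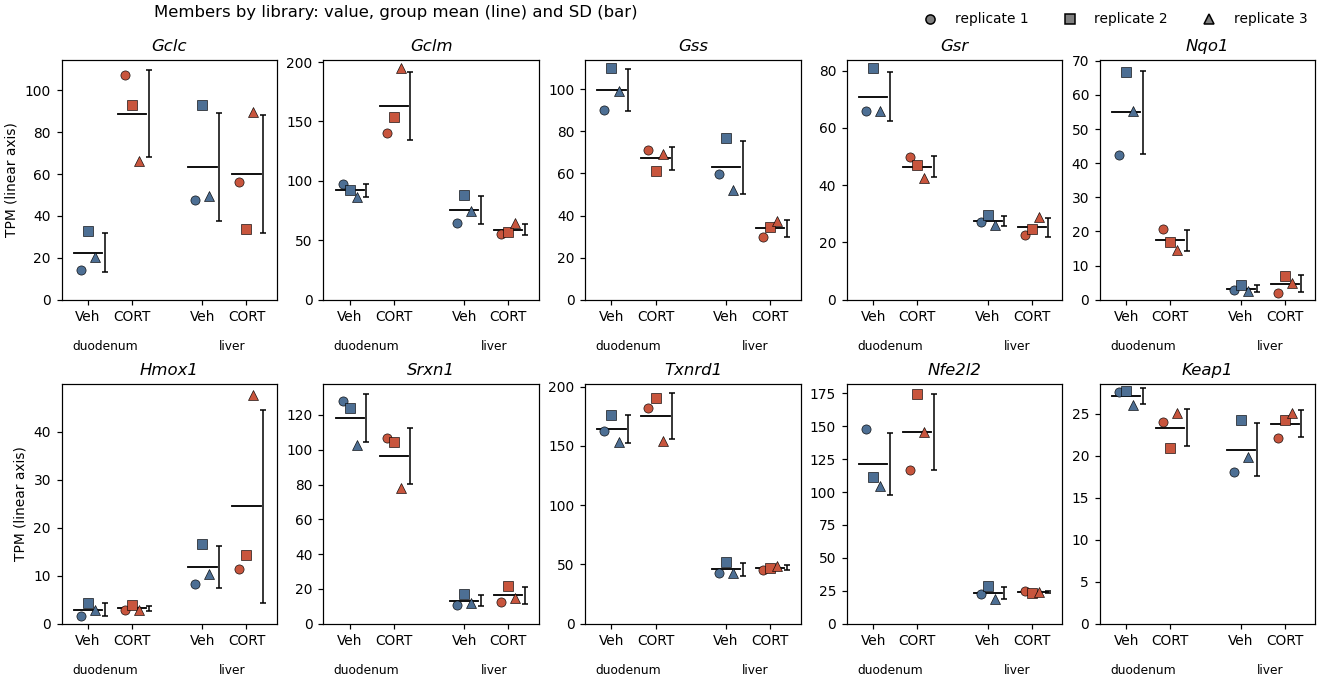
TPM (linear axes) of the 10 genes in each library of duodenum (left pair of columns in each panel) and liver (right pair), with symbols for the replicate number, a line for the mean and a bar for the SD of 3 libraries. In duodenum the CORT libraries of Gclc and Gclm lie above all Veh libraries and those of Gss, Gsr, Nqo1 and Keap1 below them, while in liver this holds for Gss alone.

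In intestine, the mean Gclc level of CORT mice was 3.94 times that of Veh mice and their mean Nqo1 level 0.317 of it, and these were the members that passed the test. Gclm, Gss and Gsr were also fully separate between the groups but missed the threshold. A gene is called here when limma gave an adjusted p of 0.05 or less over all tested genes with a fold change above 1.5. Of the 10 members 1 was called higher and 1 lower. Among all 13607 genes tested in intestine 2.15% were called, 1.23% higher and 0.919% lower. The median log2 fold change was −0.06 over the members and −0.01 over all genes. Values of CORT and Veh were fully separate for 6 of the 10 members, 2 higher and 4 lower in CORT, against 26.4% of all genes tested, and 5 had an unadjusted p under 0.05, against 19.2% of all genes.

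Gclc (ENSMUSG00000032350) measured 14.23, 32.85 and 20.53 TPM in Veh and 107.43, 92.83 and 66.30 TPM in CORT. The lowest CORT library was above the highest Veh library. The log2 fold change was 1.98 (SE 0.31, 95% interval 1.24 to 2.72, adjusted p = 0.0310), from 22.5 ± 9.47 to 88.9 ± 20.9 TPM (mean ± SD, n = 3). Without Veh3, CORT1, CORT2 or CORT3 the adjusted p was 0.118, 0.0907, 0.101 and 0.0586, with log2 fold changes of 1.96, 1.83, 1.94 and 2.18, and it passed without Veh1 or Veh2. With the acinar genes removed it was 1.94 (adjusted p = 0.0335), and against Veh1 alone, with Veh2 and Veh3 both left out, it was 2.53 (adjusted p = 0.139).

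Gclm (ENSMUSG00000028124), the modifier subunit that raises the efficiency of the enzyme, was at 97.47, 92.57 and 86.69 TPM in Veh and 139.99, 153.58 and 194.78 TPM in CORT. All CORT libraries were above all Veh libraries. The log2 fold change was 0.80 (SE 0.15, 95% interval 0.44 to 1.16), and its adjusted p of 0.0538 missed the threshold. It passed with a pseudocount of 0.1 TPM (adjusted p = 0.0494) and with median-ratio scaling of the libraries (adjusted p = 0.0425). The Gclc to Gclm ratio was 0.767, 0.604 and 0.340 in the CORT libraries, so that CORT3 lay within the Veh range. A pseudogene on the same strand, Gm6061, overlaps 244 of the 6291 exon bases of Gclm in the GENCODE annotation and was at 0.46 to 2.29 TPM in intestine.

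Gss and Gsr, the genes of the final synthetic step and of recycling, had lower values in CORT and missed the threshold. Gss (ENSMUSG00000027610) was at 90.00, 109.91 and 99.10 TPM in Veh and at 71.30, 61.10 and 69.00 TPM in CORT, without overlap. Its log2 fold change was −0.56 (SE 0.13, adjusted p = 0.0840). Acss2, which encodes an acetyl-CoA synthetase and whose exons overlap those of Gss on the opposite strand, had a value of −0.68 in intestine (adjusted p = 0.0981), and reads in the shared stretch cannot be assigned here. Gsr was at 65.82, 80.80 and 66.00 TPM in Veh and at 49.69, 47.13 and 42.63 TPM in CORT, also without overlap, with a log2 fold change of −0.59 (SE 0.13, adjusted p = 0.0784). The Gclm to Gss ratio was between 0.842 and 1.08 in Veh and between 1.96 and 2.82 in CORT, and the Gclc to Gss ratio between 0.158 and 0.299 and between 0.961 and 1.52. The ratios combine genes already described and add no test.

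Nqo1 (ENSMUSG00000003849), a classical NRF2 target whose product reduces quinones, moved in the other direction from Gclc. It was at 42.51, 66.76 and 55.41 TPM in Veh and at 20.65, 17.01 and 14.49 TPM in CORT. The highest CORT library was less abundant than the lowest Veh library. Nqo1 fell by 1.59 on the log2 scale (SE 0.20, 95% interval −2.08 to −1.11, adjusted p = 0.0189), from 54.9 ± 12.1 to 17.4 ± 3.10 TPM (mean ± SD, n = 3). Without Veh2, Veh3, CORT2 or CORT3 the adjusted p was 0.0559, 0.0800, 0.0631 and 0.0570, with log2 fold changes of −1.44, −1.58, −1.59 and −1.48. With the acinar genes removed the value was −1.63 (adjusted p = 0.0188). Against Veh1 alone, which held few acinar transcripts, it was −1.26 (adjusted p = 0.266).

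Neither Srxn1, Txnrd1 nor Hmox1 passed the test in intestine. Srxn1, which encodes the sulfiredoxin that repairs over-oxidised peroxiredoxins, was at 128.04, 123.97 and 102.81 TPM in Veh and 106.52, 104.66 and 77.82 TPM in CORT, and the groups overlapped (log2 fold change −0.30, adjusted p = 0.381). Txnrd1 ranged from 152.91 to 176.44 TPM in Veh and from 153.75 to 190.60 in CORT (0.09, 95% interval −0.22 to 0.41, adjusted p = 0.734). Hmox1, which encodes the inducible haem oxygenase, ranged from 1.55 to 4.28 TPM in Veh and from 2.78 to 3.79 in CORT (0.15, adjusted p = 0.799).

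The regulators themselves did not pass either. Nfe2l2 was at 148.20, 111.20 and 104.30 TPM in Veh and at 116.70, 174.40 and 145.64 TPM in CORT, with wide overlap and a log2 fold change of 0.26 (95% interval −0.21 to 0.73, adjusted p = 0.515). Keap1 was at 27.64, 27.67 and 26.02 TPM in Veh and at 24.05, 20.95 and 25.12 TPM in CORT, without overlap but with a small difference (−0.21, adjusted p = 0.391). NRF2 is mainly controlled through the stability of the protein, which these data do not measure.

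Markers of cell types also differed between the groups in intestine. The summed TPM of 11 enterocyte genes was 40490 to 58363 in Veh and 72739 to 85664 in CORT, with 8 of 11 positive and 1 called higher, although Vil1 overlapped. The sum of 6 lymphocyte genes was 823 to 1025 in Veh and 247 to 550 in CORT with all 6 negative. The sum of 6 red cell genes was 119 to 247 in Veh and 366 to 706 in CORT with 5 of the 5 tested positive. Their part in the changes of Gclc and Nqo1 was not tested.

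In liver, a single member was called and it was Gss, whose mean level in CORT mice was 0.539 of that in Veh mice. None of the 10 members was called higher by limma, and Gss was also the 1 member with an unadjusted p under 0.05, against 25.9% of all genes. Among the 11699 genes tested in liver 6.92% were called, 4.91% higher and 2.01% lower (575 and 235 genes, or 543 and 468 with median-ratio scaling, under which the median of all genes moved from 0.08 to −0.003). The median log2 fold change of the members was 0.05. Full separation of CORT and Veh was seen for 1 member, against 32.2% of all genes tested.

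Gss was at 59.53, 76.94 and 52.26 TPM in Veh liver and at 29.59, 34.63 and 37.58 TPM in CORT liver. Every CORT library was below every Veh library. Gss fell by 0.86 on the log2 scale (SE 0.18, 95% interval −1.28 to −0.44, adjusted p = 0.0357), from 62.9 ± 12.7 to 33.9 ± 4.04 TPM (mean ± SD, n = 3). The call held without Veh2 (adjusted p = 0.0491) and was lost without Veh1, Veh3, CORT1, CORT2 or CORT3 (adjusted p = 0.0934, 0.0584, 0.127, 0.0859 and 0.0574), while the log2 fold change stayed between −0.98 and −0.71. In the GENCODE annotation 395 of the 5915 exon bases of Gss overlap Acss2 on the opposite strand, and Acss2 was at 41.62, 41.19 and 108.11 TPM in Veh liver and 43.28, 96.70 and 34.92 TPM in CORT liver. Reads in the shared stretch cannot be assigned here, and their part in the Gss value was not tested.

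The ligase subunits did not pass in liver. Gclc varied more within the groups than between them, with 47.65, 93.16 and 49.34 TPM in Veh and 56.27, 33.93 and 89.77 TPM in CORT (log2 fold change −0.11, SE 0.39, adjusted p = 0.880). Gclm was at 64.47, 87.96 and 74.87 TPM in Veh and at 55.59, 56.85 and 64.80 TPM in CORT, overlapping by a single library (−0.35, SE 0.15, adjusted p = 0.204). With median-ratio scaling Gclm was at −0.44 (adjusted p = 0.0493) and missed the call through the limit on fold change alone. The Gclm to Gss ratio was 1.08 to 1.43 in Veh and 1.64 to 1.88 in CORT. Gsr ranged from 25.99 to 29.53 TPM in Veh and from 22.46 to 28.90 in CORT (−0.13, adjusted p = 0.593).

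Hmox1 had the largest positive log2 fold change of the members in liver, with its highest value in a single library. It was at 8.23, 16.58 and 10.34 TPM in Veh and at 11.43, 14.32 and 47.62 TPM in CORT. CORT3 stood far above the other 5 libraries. The log2 fold change was 0.78 (SE 0.52, adjusted p = 0.388), and 0.17 (adjusted p = 0.769) without CORT3. The summed TPM of 13 macrophage markers, cells that break down haem in liver, was 194 to 235 in Veh and 179, 292 and 508 in CORT, so it was highest in the same library. The Kupffer cell genes Clec4f (77.55 TPM), Vsig4 (33.28) and Adgre1 (11.87) were each at their highest in CORT3, and 12 of the 13 markers had a positive fold change with 1 called. Their part in the Hmox1 value was not tested.

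**Figure D2:**
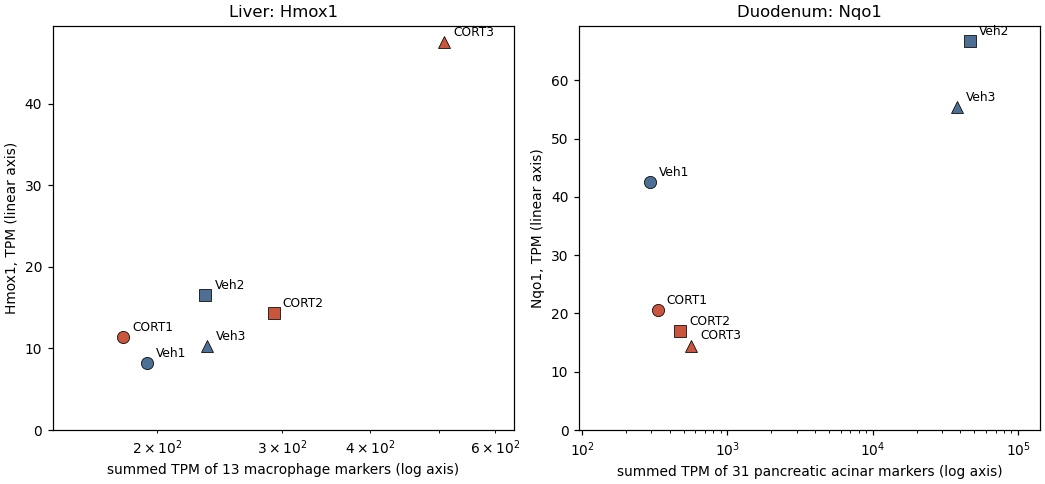
Left, Hmox1 in liver (TPM, linear axis) against the summed TPM of 13 macrophage markers (log axis), with CORT3 highest on both axes at 508 and 47.62 TPM. Right, Nqo1 in duodenum against the summed TPM of 31 pancreatic acinar markers (log axis), where Veh1 lies near the CORT libraries on the horizontal axis, at 291 TPM, and above them in Nqo1, at 42.51 TPM, and each symbol is a library labelled with its group and replicate.

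Nqo1 stayed low in liver, with 2.80, 4.33 and 2.50 TPM in Veh and 2.08, 7.03 and 4.82 TPM in CORT (log2 fold change 0.34, 95% interval −0.51 to 1.19, adjusted p = 0.586). Srxn1 ranged from 10.97 to 16.77 TPM in Veh and from 12.38 to 21.68 in CORT (0.27, adjusted p = 0.514). Txnrd1 ranged from 42.62 to 52.08 and from 44.91 to 49.01 TPM (0.04, 95% interval −0.26 to 0.34, adjusted p = 0.869). All 3 genes overlapped between the groups.

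Among the regulators in liver, Nfe2l2 ranged from 18.99 to 28.51 TPM in Veh and from 23.16 to 24.50 in CORT (log2 fold change 0.05, 95% interval −0.33 to 0.43, adjusted p = 0.871). Keap1 ranged from 18.10 to 24.22 and from 22.09 to 25.16 TPM (0.20, adjusted p = 0.425). The values of Txnrd1 and Nfe2l2 turned slightly negative with median-ratio scaling, so neither has a direction.

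**Figure D3:**
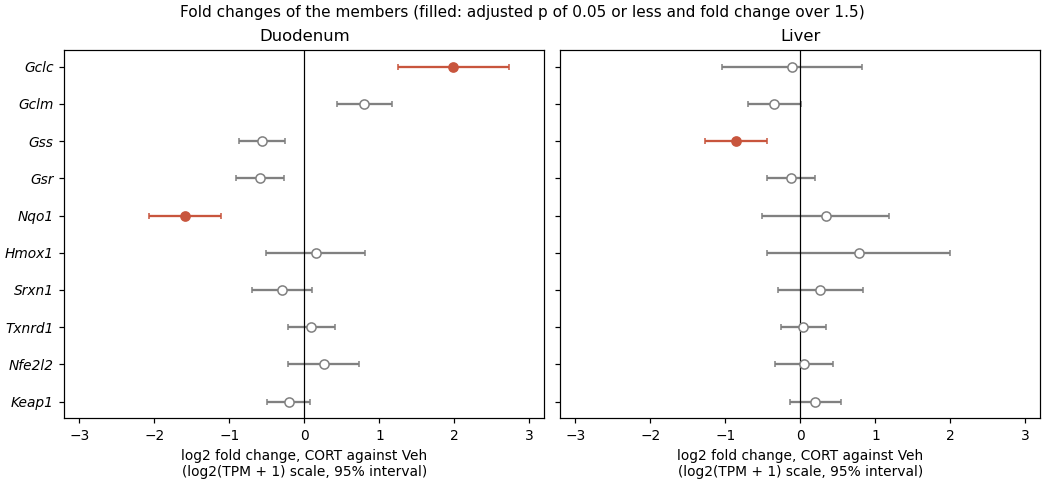
Log2 fold changes of the 10 genes (points) with limma's 95% intervals (bars), CORT against Veh, in duodenum and liver, with filled points for genes that were called. Gclc at 1.98 and Nqo1 at −1.59 are called in duodenum and Gss at −0.86 in liver, and Gss is below 0 in both tissues.

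Whether the response differed between the tissues was tested with a treatment by tissue term over the 12 libraries, treated as independent. It was called for 2 of the 10 members, Gclm and Nqo1, against 3.6% of the 14806 genes tested. For Gclm the log2 fold change in liver minus that in intestine was −1.15 (SE 0.21, 95% interval −1.61 to −0.68, adjusted p = 0.0147), from 0.80 in intestine and −0.35 in liver, and it was called without each of the 12 libraries in turn. Without intestine Veh2 and Veh3 together, the acinar-rich libraries, it was −1.07 and not called (adjusted p = 0.107). For Nqo1 the difference was 1.94 (SE 0.45, 95% interval 0.95 to 2.92, adjusted p = 0.0413), from −1.59 in intestine and 0.34 in liver. That call held in 3 of the 12 fits that left a library out, those without intestine Veh1, liver Veh2 or liver CORT1, and the adjusted p of the other 9 reached 0.0922 while the difference stayed between 1.63 and 2.32. The call was also lost with a pseudocount of 0.1 TPM (2.04, adjusted p = 0.0764), without the filter on low values (adjusted p = 0.0855) and without intestine Veh2 and Veh3 together (1.60, adjusted p = 0.237).

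The difference for Gclc was larger, −2.10 (SE 0.56), but its adjusted p was 0.0668, and it passed without liver CORT3 (−2.44, adjusted p = 0.0372) and with median-ratio scaling (−2.19, adjusted p = 0.0457). Gss, negative in both tissues, had a difference of −0.30 (95% interval −0.78 to 0.18, adjusted p = 0.514). The differences of Gsr (0.47, adjusted p = 0.202) and Keap1 (0.41, adjusted p = 0.248) missed the threshold, as did those of Srxn1 (0.57, adjusted p = 0.360) and Hmox1 (0.63, adjusted p = 0.655). Those of Txnrd1 and Nfe2l2 were −0.05 and −0.21 (adjusted p = 0.907 and 0.727).

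Around the 10 genes, 98 other genes of the pathway were read as 6 lists, of which 92 were tested in each tissue. The lists too were chosen with earlier results of these data known, so their shares are a description only. In intestine 6 were called, 4 higher and 2 lower, and in liver 7, all higher. These are 6.52% and 7.61% of the tested genes, against 2.15% and 6.92% of all genes, so the share in liver was close to the background. When each library was left out in turn, the calls of Ggct and Mgst1 in intestine and of Glrx and Nfe2l1 in liver held in all 6 fits, that of Oplah in 2, and those of Ahcy, Gstm4, G6pdx, Txnip, Gpx3, Gsk3b, Gstm2 and Mafg in 1. Median-ratio scaling ended the calls of G6pdx in intestine and Gstm2 in liver. The median log2 fold change over the tested genes was −0.05 in intestine and 0.03 in liver, against −0.01 and 0.08 over all genes. Slc7a11, the cystine importer that feeds glutathione synthesis in many cultured cells, was at most 0.18 TPM in any library and was not tested.

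Among genes of glutathione supply and turnover, 2 of 15 tested rose in intestine, where 1.23% of all genes did, and 1 of 15 in liver, near the 4.91% of all genes. Ggct, whose product releases amino acids from gamma-glutamyl peptides during glutathione breakdown, was at 1.54, 2.17 and 2.95 TPM in Veh intestine and at 9.91, 14.93 and 16.54 TPM in CORT intestine. The groups were far apart, with a log2 fold change of 2.19 (SE 0.24, adjusted p = 0.0112) that was called without each of the 6 libraries in turn. In liver Ggct ranged from 7.44 to 10.07 TPM in Veh and from 5.62 to 7.71 in CORT (−0.27, adjusted p = 0.367). Ahcy, which clears S-adenosylhomocysteine on the way to cysteine, rose in intestine by 0.95 (adjusted p = 0.0272), and Oplah, which returns 5-oxoproline to glutamate, rose in liver by 1.12 (adjusted p = 0.0184).

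Among glutathione-using enzymes, none of 14 was called in intestine, where the smallest p belonged to Gpx3, the secreted glutathione peroxidase (log2 fold change 0.99, adjusted p = 0.0646) and 3 of the 14 had an unadjusted p under 0.05, near the 19.2% of all genes. In liver 2 of 13 rose, against 4.91% of all genes. Gpx3 was at 2.42, 8.61 and 4.52 TPM in Veh liver and at 20.56, 17.73 and 27.51 TPM in CORT liver, without overlap (2.00, SE 0.37, adjusted p = 0.0262). Glrx, which encodes the glutaredoxin that removes glutathione from proteins, was at 27.78, 24.79 and 39.14 TPM in Veh and at 102.45, 104.14 and 70.80 TPM in CORT, also without overlap (1.57, SE 0.22, adjusted p = 0.0118). The Glrx value in intestine was 0.21 (adjusted p = 0.604).

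Among the glutathione S-transferases, enzymes that couple glutathione to electrophiles, 1 of 22 rose and 1 fell in intestine, against 1.23% and 0.919% of all genes, and 1 of 21 rose in liver, near the 4.91% of all genes. Mgst1, the microsomal member, was at 281.21, 247.16 and 360.14 TPM in Veh intestine and at 1006.74, 1082.37 and 1135.50 TPM in CORT intestine. Every CORT library was far above every Veh library, and the log2 fold change was 1.87 (SE 0.17, adjusted p = 0.00621). In liver Mgst1 was abundant in both groups, 4167.52 to 5671.78 TPM in Veh and 5207.95 to 8549.48 in CORT (0.43, adjusted p = 0.279). Gstm4 fell in intestine by 1.35 on the log2 scale (adjusted p = 0.0253) and Gstm2 rose in liver by 1.35 (adjusted p = 0.0490). In intestine Gstm1, Gstm2 and Gstm3 lay higher in every CORT library (0.63, 0.83 and 1.08, adjusted p = 0.118, 0.0784 and 0.0598). CORT and Veh values were fully separate for 8 of the 22 in intestine, 6 higher and 2 lower, against 26.4% of all genes. In liver they were separate for 8 of the 21, 5 higher and 3 lower, against 32.2%. An unadjusted p under 0.05 was found for 8 and 9 genes, against 19.2% and 25.9% of all genes. The Gstm genes are similar to each other, so the division of reads between them may be uncertain, which was not tested.

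Among thioredoxin and peroxiredoxin genes, 1 of 11 was called in intestine, against 2.15% of all genes, and none of 11 in liver, against 6.92%. These numbers of calls are too small to set the list apart. The called gene was Txnip, which encodes an inhibitor of thioredoxin and does not itself reduce peroxides. It was at 99.78 to 147.28 TPM in Veh intestine and 235.89 to 271.60 in CORT intestine (log2 fold change 1.10, adjusted p = 0.0305). In intestine 6 of the 11 had an unadjusted p under 0.05, against 19.2% of all genes. CORT and Veh values were fully separate for 7 of the 11, 2 higher and 5 lower in CORT, against 26.4% of all genes. In liver the smallest p belonged to Txnrd3 (−0.64, adjusted p = 0.0941), and 4 of the 11 had an unadjusted p under 0.05, against 25.9% of all genes. Prdx1, an abundant peroxiredoxin, lay lower in every CORT library of intestine and higher in every CORT library of liver (−0.36 and 0.25, adjusted p = 0.211 and 0.272).

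Among 20 other NRF2 target genes tested in intestine, 1 was called, against 2.15% of all genes. G6pdx, which encodes the enzyme that supplies NADPH through the pentose phosphate pathway, was at 43.61, 54.06 and 55.85 TPM in Veh and at 29.93, 24.49 and 25.97 TPM in CORT. It fell by 0.91 on the log2 scale (SE 0.15, adjusted p = 0.0336). In intestine 13 of the 20 had a negative fold change, against 51.5% of all genes, with a median of −0.19. Of the 20, 8 had an unadjusted p under 0.05, against 19.2% of all genes. CORT and Veh values were fully separate for 9, 2 higher and 7 lower in CORT, against 26.4% of all genes. In liver none of 21 was called, 4 had an unadjusted p under 0.05, against 25.9% of all genes, and the smallest p belonged to Osgin1, an oxidative stress-induced gene, at 270.83, 242.07 and 79.57 TPM in Veh and 25.95, 32.86 and 63.76 TPM in CORT (−2.16, SE 0.52, adjusted p = 0.0551).

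Among partners and controllers of NRF2, none of 10 was called in intestine, where the smallest p belonged to Gsk3b (log2 fold change 0.32, adjusted p = 0.208) and 2 of the 10 had an unadjusted p under 0.05, near the 19.2% of all genes. In liver 3 of 11 rose, against 4.91% of all genes. Nfe2l1, a relative of Nfe2l2 that also binds antioxidant response elements, was at 24.91, 29.56 and 24.94 TPM in Veh liver and at 60.17, 63.47 and 52.37 TPM in CORT liver (1.12, SE 0.14, adjusted p = 0.00693). Its groups were well apart, and the call held without each library in turn. Mafg, a small MAF partner of NRF2, rose by 0.91 (adjusted p = 0.0330), and Gsk3b, a kinase that marks NRF2 for degradation, by 0.88 (adjusted p = 0.0262). The rises in liver therefore include both a partner and a negative regulator, while Nfe2l2 and Keap1 were not called. The other small MAF genes of the list, Maff and Mafk, had negative values in liver (−0.96 and −0.13, adjusted p = 0.108 and 0.665). Maff was at 3.92 to 10.43 TPM in Veh liver and 2.22 to 2.85 in CORT liver, without overlap. Pericentral hepatocyte genes, 8 in all, summed to 3010 to 4928 TPM in Veh liver and 5363 to 8296 in CORT liver, with 5 of 8 positive, and their part was not tested.

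**Figure D4:**
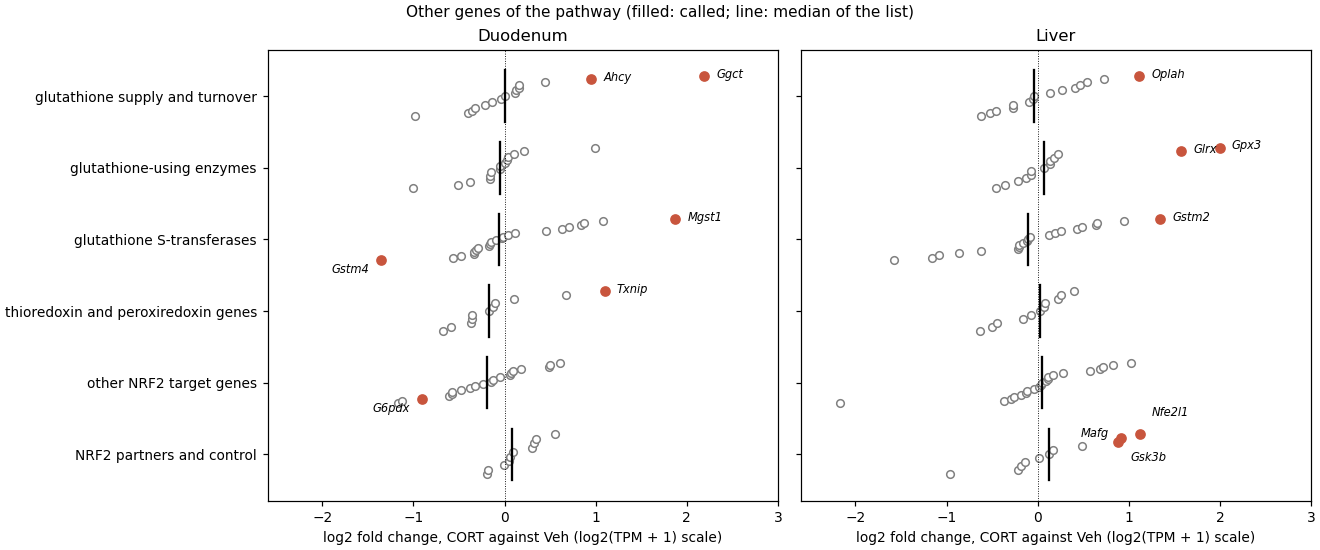
Log2 fold changes (CORT against Veh, log2(TPM + 1) scale) of the tested genes of the 6 lists in duodenum and liver, each point a gene, with filled and named points for genes that were called and a line for the median of each list. The called genes lie at the edges of lists whose medians are between −0.19 and 0.12.

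The treatment by tissue term was called for 6 of 96 pathway genes (6.25%), against 3.6% of all genes tested. Ggct (−2.46, adjusted p = 0.00201) and Mgst1 (−1.44, adjusted p = 0.0201) had the larger fold change in intestine, and Osgin1 (−2.67, adjusted p = 0.0376) the lower one in liver. Nfe2l1 (1.07, adjusted p = 0.0140) and Glrx (1.36, adjusted p = 0.0427) had the larger fold change in liver. For G6pdx (1.58, adjusted p = 0.0206) the called change was the fall in intestine (−0.91). In liver its log2 fold change was 0.68 and not called (adjusted p = 0.17). G6pdx averaged 1.57 ± 0.587 TPM in Veh liver and 3.14 ± 1.04 TPM in CORT liver (SD, n = 3), low levels for which log2(TPM + 1) understates change. The calls of Ggct and Nfe2l1 held without each of the 12 libraries, those of Mgst1 in 11 and of G6pdx in 10 of the 12 fits, and those of Glrx in 3 and of Osgin1 in 2. Median-ratio scaling ended the call of Glrx.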

How the data were processed

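RNA of duodenum and liver (3 CORT and 3 Veh libraries each) was analysed. Per the paper's methods and the labels, the authors used SeqPrep and Sickle for trimming of paired-end reads, HISAT2 in orientation mode for alignment, StringTie for assembly and RSEM for quantification, with GRCm39 as the build. They deposited TPM for each gene in each library, in one table per tissue. Versions and the annotation release are not given in the sources used here. The authors called DEGs with DESeq2. TPM keep no depth, so no counting error can be given, and precision comes from 3 libraries per group, for which an exact permutation test cannot go below p = 0.1. The labels call the libraries biological replicates without naming the animals, and p-values measure the spread between these libraries.

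Starting from TPM, log2(TPM + 1) was fitted per tissue with limma 3.58.1 in R 4.3.3 (lmFit, eBayes with a trend) for genes averaging 1 TPM or more in the Veh or the CORT group, with Benjamini-Hochberg adjustment. A treatment by tissue term was fitted over all 12 libraries. On this scale the change of weakly expressed genes comes out too small. Calls needed an adjusted p no higher than 0.05 together with a fold change above 1.5. The fits were tested on simulated data. The text names the 10 members, pathway genes called in either tissue or by the term, for a list with none the gene with the smallest p, and Fkbp5. Prdx1, Entpd5, Slc7a11, Acss2, Gm6061, Alb, Vil1, Gstm1, Gstm3, Maff, Mafk and 3 Kupffer cell genes were named after their values were seen. The members and lists were chosen with earlier results of these data known. Alternatives were a pseudocount of 0.1, no filter, no fold limit, unadjusted p, the replicate number as a block, median-ratio scaling, removal of acinar genes and leaving out libraries. Leaving out intestine Veh2 and Veh3 together, or liver Veh2 and CORT3, was added after seeing the data. Promoters came from RefSeq (GRCm38.p6) and exon overlaps from GENCODE on GRCm38, builds other than that of the tables, and no coordinates were converted. The end of the RefSeq window of Nfe2l2, after the start, was found in no transcript of that annotation.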

Additional observations from a re-analysis of the deposited data

Results flagged for a closer look

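The treatment by tissue term was called for 2 of the 10 genes, against 3.6% of the 14806 genes tested. The log2 fold change in liver minus that in intestine was −1.15 for Gclm, the modifier subunit of glutamate-cysteine ligase, and 1.94 for Nqo1. The same term was called for 6 of the 96 other pathway genes tested (6.25%). They were Ggct (−2.46), Mgst1 (−1.44), Osgin1 (−2.67), Nfe2l1 (1.07), Glrx (1.36) and G6pdx (1.58). Of the 12 fits that left a library out, the calls of Nqo1 and Glrx held in 3 each and that of Osgin1 in 2. Those of Gclm, Ggct and Nfe2l1 held in all 12, that of Mgst1 in 11 and that of G6pdx in 10. For Prdx1 (0.62, adjusted p = 0.0653) and Entpd5 (0.90, adjusted p = 0.0744) every CORT library lay on the lower side of the Veh libraries in intestine and on the higher side in liver, and the treatment by tissue term missed the threshold.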

How the results depend on the processing

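Members called numbered 2 in intestine, 1 in liver and 2 by the treatment by tissue term, and pathway genes 6, 7 and 6. Without a filter on low values these were 0, 0 and 1 members and 1, 2 and 3 pathway genes, with 52, 283 and 336 genes called in all, where more genes were tested. Deviations from the group mean correlated weakly between same-numbered libraries (−0.12 to 0.07) and between differently numbered ones (−0.14 to 0.13). These correlations are over all genes and a few libraries, so whether the numbers mark pairs or a batch is not known. With the replicate number as a block, 62, 307 and 211 genes were called, 0, 0 and 0 of them members and 2, 2 and 3 pathway genes. By unadjusted p, 1395 genes were called in intestine (4 members, 17 pathway genes) and 1808 in liver (1 member, 21 pathway genes). The term called 1 member, Gclm, with a pseudocount of 0.1 and without the filter, Nqo1 being lost in both. With the block the adjusted p of the term was 0.0653 for Gclm and 0.0629 for Nqo1. Leaving out a library gave 66 to 237 genes in intestine, 247 to 831 in liver and 289 to 626 by the term, with 0 to 2, 0 to 1 and 1 to 2 members and 2 to 4, 2 to 6 and 3 to 9 pathway genes. Without intestine Veh2 and Veh3, 10 genes were called in intestine and 301 by the term, with 0 members in both and 0 and 2 pathway genes, the lone Veh library being assumed to vary like the others. Without liver Veh2 and CORT3 no member was called. Gss in liver then had −0.78 (adjusted p = 0.0568).

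Directions turned for some members that were not called. With median-ratio scaling, Txnrd1 and Nfe2l2 in liver were −0.053 and −0.041. Without intestine Veh2 and Veh3, Nfe2l2 was −0.045 in intestine and 0.095 for the term. Leaving out a library gave ranges of −0.12 to 0.40 for Hmox1 in intestine, −0.46 to 0.23 for Gclc, −0.0090 to 0.13 for Txnrd1 and −0.082 to 0.20 for Nfe2l2 in liver, and −0.14 to 0.040 for Txnrd1 by the term. The cause of these changes was not tested. The called changes of Gclc and Nqo1 in intestine, Gss in liver and Gclm and Nqo1 by the term kept their direction under every alternative run.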
